A study of Mus musculus with 36 samples.

Results

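The comparison described here sets mouse multipotent progenitors (MPP) after 4 h of TGF-β1 against untreated MPP, on 6 of the 36 arrays of the series. The members are the 3 arrays labelled 4 h and the 3 labelled untreated (0 h), and each gene with a symbol of its own was followed through its brightest probe set, which gave 19938 genes. All MPP came from mouse bone marrow, were grown in culture with cytokines and were sorted by FACS. The treated cells then received 10 ng/ml recombinant human TGF-β1, and the untreated cells received none. By the study's account the 3 arrays per group are biological replicates. The series also holds MPP at 2, 8, 12 and 24 h and common dendritic cell progenitors (CDP, a later stage committed to dendritic cells) at the same times. No untreated array at 4 h was analysed, so 4 h of TGF-β1 and 4 h of further culture cannot be told apart. Strain, age and the number of animals behind a replicate are not given in the sources used here.

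TGF-β1 is a secreted cytokine that binds a pair of receptor kinases at the cell surface, Tgfbr2 and Tgfbr1. These phosphorylate Smad2 and Smad3, which enter the nucleus with Smad4 and switch genes on or off together with other factors. Among the genes switched on are inhibitors that damp the signal again, and in early blood cells the pathway restrains growth and helps to steer cells towards the dendritic and Langerhans fates.

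Levels are log2 expression values, and changes are differences of these, 4 h minus 0 h, ± standard error (SE) with 3 arrays per group. A difference of 1 is a doubling. A gene was called, that is said to have risen or fallen, when the adjusted p was under 0.01 and the change was 1 or more in size. Values on single arrays are given in the order replicate 1, 2 and 3.

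Arrays of a group correlated at 0.996 or more across genes, and the median SD of a gene was 0.0645 at 0 h and 0.0734 at 4 h. The progenitor markers were bright at both times. Kit, the stem cell factor receptor, read 11.30, 11.20 and 11.40 at 0 h and 11.01, 10.92 and 11.20 at 4 h, and Cd34, Myb, Spi1 and Lmo2 read above 12 on every array. Of the 10 progenitor markers checked, from Kit to Lmo2, none was called at 4 h. The most changed was Flt3, the receptor for the growth factor Flt3 ligand (0.66 ± 0.10, adjusted p = 0.000295). Without the size threshold Cd34 (0.24) also passed the adjusted p as higher, and Ptprc (−0.42), Kit (−0.25) and Lmo2 (−0.24) as lower. In the list of 18 measured progenitor markers 3 were higher and 4 lower in this way, against 2.98% and 2.06% of all genes. Replicate 1 stood apart in its sex-linked transcripts at both times, with Xist at 6.96 and 7.28 against 12.62 to 13.65 on the other 4 arrays, and the replicate number was a block in the fit. Untreated replicate 3 stood apart in inflammatory genes, as given with those genes, and treated replicate 3 had the lowest array median (7.49, against 7.59 to 7.61 on the other 5 arrays).

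After 4 h, 56 genes had risen and 27 had fallen, 0.416% of all genes (0.281% up and 0.135% down). The rises were led by Pmepa1, Chad, Spsb1, Kcne3 and Pald1, and the falls by Ednrb, Gem, Clec4a1 and Cd28. The median change over all genes was 0.0073. In each of the 83 called genes the 3 pairs of equal replicate number shared 1 direction. The arrays of the groups did not overlap in 56 of the 56 risen genes (background over all genes 10.6% upward) and in 26 of the 27 fallen genes (8.42% downward). The genes were called on these same arrays, so the shared direction and the lack of overlap follow largely from the call. They are not separate support for it. The exception was Gm5150, whose highest 4 h array (10.06) lay above its lowest 0 h array (9.93). By the adjusted p alone, without the size threshold, 1004 genes passed (5.04%), 594 higher (2.98%) and 410 lower (2.06%). In bulk RNA a change in the level per cell and a change in the share of cells of a type cannot be told apart.

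**Figure D1:**
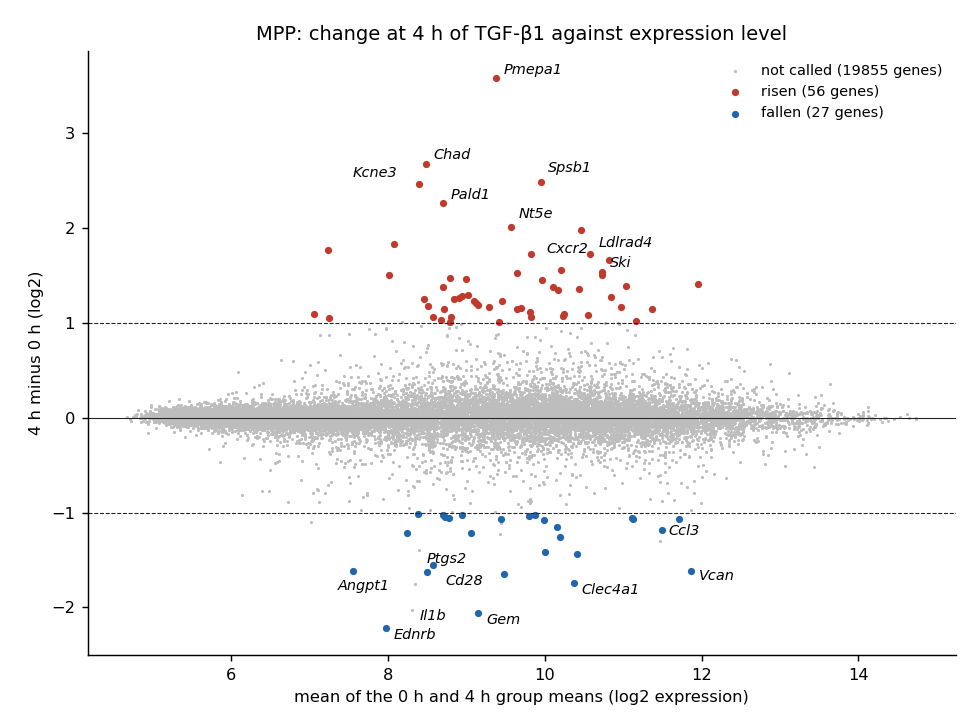
Change in MPP at 4 h against 0 h (y axis, log2) plotted against the mean of the 2 group means (x axis, log2 expression), 1 point per gene. Red points are the 56 risen and blue points the 27 fallen genes, grey points were not called, and the dashed lines mark a change of 1 either way. Pmepa1 lies highest at 3.58 and Ednrb lowest at −2.21, and Il1b, Ptgs2 and Ccl3 lie below −1 without a call.

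Inhibitors of the pathway were among the most risen genes. Against 0.281% of all genes risen and 0.135% fallen, 6 of 24 measured feedback inhibitors rose, none fell and 18 were not called. The list median was 0.093 (0.058, with 6 risen, without untreated replicate 3). The study itself named several of these genes from these samples, so the count is not independent evidence. Pmepa1, a membrane protein that keeps Smads away from the receptor, read 8.11, 7.18 and 7.48 at 0 h and 11.14, 11.01 and 11.37 at 4 h. Every treated array lay far above the highest untreated array. Its rise of 3.58 ± 0.12 (11.9-fold, adjusted p = 4.85e-11) was the largest of all genes tested.

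Spsb1, an adaptor that sends the type II receptor for degradation, read 8.68, 8.97 and 8.45 at 0 h and 11.24, 11.28 and 11.05 at 4 h. It rose by 2.49 ± 0.09 (5.61-fold, adjusted p = 1.32e-10). Its treated arrays were tight and far above every untreated array. Ldlrad4, a relative of Pmepa1 that also binds Smads, read 9.90, 9.75 and 9.52 and then 11.70, 11.40 and 11.24, a rise of 1.72 ± 0.05 (adjusted p = 2.76e-12). In both groups its replicates kept the same order, and the step was nearly the same in each pair.

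The nuclear corepressors Ski and Skil, which bind Smads on DNA and block transcription, rose by nearly the same amount. Ski went from 9.89, 10.11 and 9.93 to 11.36, 11.47 and 11.61 (1.51 ± 0.06, adjusted p = 3.26e-10). Skil went from 9.16, 9.25 and 9.32 to 10.76, 10.77 and 10.55 (1.45 ± 0.09, adjusted p = 2.82e-08). Smad7, the inhibitory Smad that recruits ubiquitin ligases to the receptor, read 8.81, 8.92 and 8.77 at 0 h and 10.04, 9.88 and 10.28 at 4 h (1.23 ± 0.09, adjusted p = 4.97e-07). In none of the 3 did the groups overlap. Smad6, the other inhibitory Smad, was 0.69 ± 0.07 higher (adjusted p = 5.38e-06), under the size threshold. The ubiquitin ligase genes Smurf1 (0.27) and Smurf2 (0.23) and the corepressor gene Tgif1 (0.22) also passed the adjusted p without the size threshold.

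**Figure D2:**
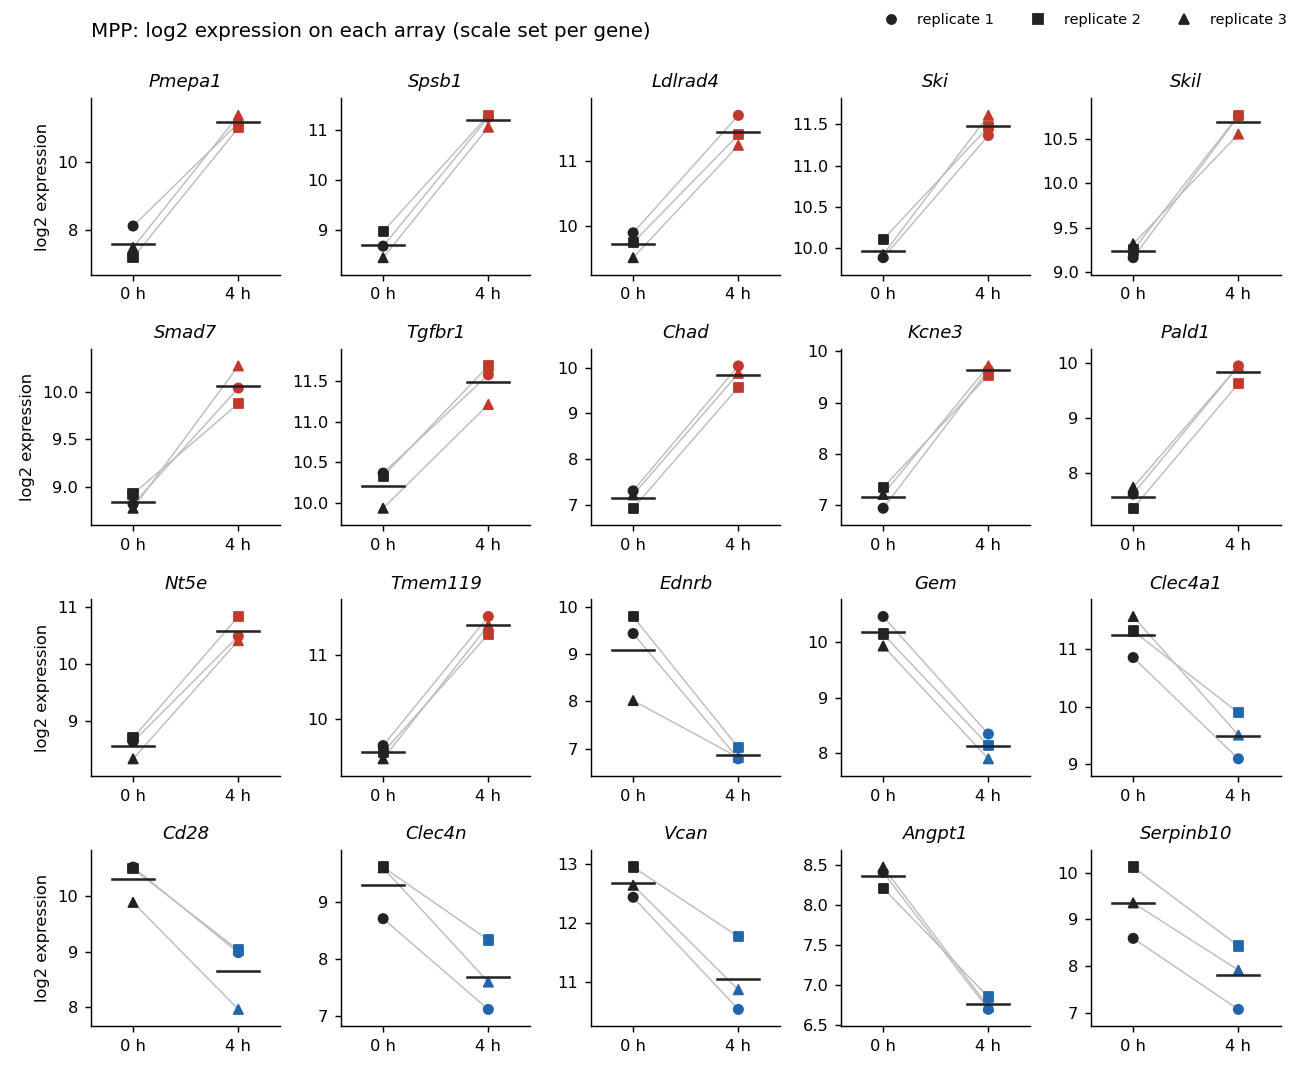
Log2 expression (y axis, set for each gene) of 20 called genes on each of the 6 arrays, untreated (0 h, black) and at 4 h (red for risen, blue for fallen). Markers give the replicate, grey lines join same-numbered arrays and bars mark group means. In each of the 20 genes every 4 h array lies on 1 side of every 0 h array, while untreated replicate 3 of Ednrb (8.02) lies apart from the other untreated arrays (9.44 and 9.80).

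Of 14 receptors of the TGF-β family, Tgfbr1 alone was called, and the list median was 0.037. Tgfbr1, the type I receptor kinase, read 10.37, 10.33 and 9.94 at 0 h and 11.57, 11.68 and 11.21 at 4 h, without overlap (1.27 ± 0.07, adjusted p = 4.81e-09). The accessory receptor Eng (0.51 ± 0.07) and the type II receptor Tgfbr2 (0.36 ± 0.06) were higher and the accessory receptor Tgfbr3 (−0.54 ± 0.09) lower at adjusted p-values of 0.000268, 0.000723 and 0.000905, each under the size threshold. None of 19 ligands and activators was called, against 0.416% of all genes (median 0.022, from −0.52 to 0.49). Tgfb1 itself read 12.74, 12.85 and 12.87 at 0 h and 12.88, 12.87 and 13.46 at 4 h, so that replicate 3 carried most of its difference of 0.25 ± 0.10 (adjusted p = 0.157). Furin, the protease that cuts the precursor, was at 0.49 ± 0.06 and Thbs1, thrombospondin, which can free TGF-β from its latent form, at −0.52 ± 0.05.

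The signalling Smads and their partners stayed within a narrow range. None of the 13 was called, none passed the adjusted p alone, and their changes ran from −0.22 to 0.15 with a median of −0.027. Textbook Smad target genes outside the inhibitors were not called either, 0 of 32, against 0.416% of all genes. By the adjusted p alone 6 of them were higher and 3 lower, all under the size threshold, against 2.98% and 2.06% of all genes. The Runt factor gene Runx3 (0.52 ± 0.07), the repressor genes Hes1 (0.54 ± 0.10) and Bhlhe40 (0.48 ± 0.10) were among the higher ones. Id3, an inhibitor of basic helix-loop-helix factors (−0.46 ± 0.07), and Myc (−0.35 ± 0.04) were among the lower ones. These members and those named below without a call were picked by their adjusted p after their values were seen.

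The promoters of the called genes were searched for letters that Smads and AP-1 factors are known to read. RefSeq promoter windows (GRCm38.p6, from 250 bases before to 50 after the start) were matched for 44 of the 56 risen and 18 of the 27 fallen genes. Pmepa1, Skil, Ldlrad4 and Smad7 were not among those matched. The motifs, on both strands, were CAGAC (the Smad core with a flanking base), GTCTAGAC (a palindromic Smad element), GGCGCC (a GC-rich Smad element) and TGAGTCA (the AP-1 element). CAGAC stood in 26 of the 44 risen promoters (59.1%), in 9 of the 18 fallen and in 49.7% of 27025 promoters. GGCGCC stood in 10 of the 44 risen (22.7%), in 0 of the 18 fallen and in 12.0% of all. TGAGTCA stood in 7 of the 44 risen (15.9%), in 0 of the 18 fallen and in 5.17% of all, and GTCTAGAC in none of either set and in 0.211% of all. These are descriptions of letters in a window, not of binding. The promoters of 4 risen genes that hold a motif are printed, 5′ to 3′ on the strand of the gene, with the motif letters in capitals: Ski and Tgfbr1 as pathway genes with the GC-rich element, Emp1 and Cav2 as genes with 3 Smad cores and an AP-1 element each. In Emp1 the AP-1 element overlaps a Smad core. The windows are chr4:155222486-155222785 (Ski, minus strand), chr4:47352972-47353271 (Tgfbr1, plus strand), chr6:135362681-135362980 (Emp1, plus strand) and chr6:17280935-17281234 (Cav2, plus strand).
Ski: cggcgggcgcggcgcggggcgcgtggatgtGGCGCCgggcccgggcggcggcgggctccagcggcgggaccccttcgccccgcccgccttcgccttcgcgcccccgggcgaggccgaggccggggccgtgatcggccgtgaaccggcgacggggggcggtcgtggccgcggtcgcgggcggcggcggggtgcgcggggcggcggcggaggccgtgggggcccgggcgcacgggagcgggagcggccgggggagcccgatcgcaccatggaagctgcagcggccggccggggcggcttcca
Tgfbr1: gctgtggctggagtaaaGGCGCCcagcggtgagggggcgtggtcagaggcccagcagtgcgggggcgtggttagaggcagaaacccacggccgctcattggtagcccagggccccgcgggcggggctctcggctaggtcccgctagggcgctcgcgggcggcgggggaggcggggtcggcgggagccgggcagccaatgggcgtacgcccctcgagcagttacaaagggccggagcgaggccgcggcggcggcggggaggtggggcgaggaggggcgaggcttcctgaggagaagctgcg
Emp1: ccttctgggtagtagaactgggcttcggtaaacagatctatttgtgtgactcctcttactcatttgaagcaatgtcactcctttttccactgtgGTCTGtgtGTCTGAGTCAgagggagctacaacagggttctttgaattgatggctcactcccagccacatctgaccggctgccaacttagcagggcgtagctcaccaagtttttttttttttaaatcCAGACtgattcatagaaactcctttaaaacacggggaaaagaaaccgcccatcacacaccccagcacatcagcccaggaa
Cav2: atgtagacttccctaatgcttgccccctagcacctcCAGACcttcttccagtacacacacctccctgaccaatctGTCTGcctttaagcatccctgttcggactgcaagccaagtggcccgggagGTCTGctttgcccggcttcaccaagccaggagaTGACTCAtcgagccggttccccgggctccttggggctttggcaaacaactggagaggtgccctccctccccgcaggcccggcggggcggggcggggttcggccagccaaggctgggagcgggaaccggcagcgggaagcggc

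The most risen genes outside the pathway were Chad, Kcne3, Pald1, Nt5e and Tmem119. Of 39 extracellular matrix and remodelling genes Chad alone rose, and Vcan and Serpinb10 fell (median −0.010), against 0.281% of all genes up and 0.135% down. Chad, which encodes the matrix protein chondroadherin, read 7.30, 6.92 and 7.22 at 0 h and 10.04, 9.57 and 9.87 at 4 h (2.68 ± 0.06, 6.41-fold, adjusted p = 3.34e-13). Kcne3, a subunit of potassium channels, went from 6.94, 7.34 and 7.21 to 9.63, 9.54 and 9.71 (2.46 ± 0.11, adjusted p = 9.69e-10). Each treated array exceeded the highest untreated array of its gene by more than 2. Pald1, a phosphatase-like protein, rose by 2.26 ± 0.05, Nt5e, the ectoenzyme CD73 that makes adenosine from AMP, by 2.01 ± 0.09, and the membrane protein gene Tmem119 by 1.98 ± 0.05. The groups overlapped in none of these 3 genes. Emp1, an epithelial membrane protein, rose by 1.73 ± 0.14 and Spint1, an inhibitor of surface serine proteases, by 1.56 ± 0.22. Itgb5, which pairs with the integrin αv chain, was the 1 called member of 33 integrin and adhesion genes (1.41 ± 0.10). The caveolar coat genes Cav2 (1.28 ± 0.08) and Cav1 (1.06 ± 0.15) and the junction protein gene F11r (1.34 ± 0.11) rose as well. Cav1 lost its call without replicate 1, replicate 2 or untreated replicate 2 (0.87 without the last).

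Single receptors for chemokines, nucleotides and cytokines rose. Cxcr2, the receptor for neutrophil-attracting chemokines, read 10.24, 10.21 and 9.51 at 0 h and 11.83, 11.75 and 11.36 at 4 h (1.66 ± 0.11, adjusted p = 1.45e-07). The UDP receptor gene P2ry6 rose by 1.54 ± 0.07 and F2r, the thrombin receptor, by 1.26 ± 0.07. Of 43 chemokine, lipid and peptide receptors on the list, Cxcr2 and F2r rose and Ednrb fell, and Cx3cr1 (1.00 ± 0.12) lay just under the size threshold. The share over all genes was 0.281% up and 0.135% down. Of 39 growth factor and cytokine receptors 2 rose, Axl, a receptor kinase that takes part in clearing dead cells (1.46 ± 0.09), and Il21r (1.16 ± 0.13). Axl went from 8.18, 8.17 and 8.42 to 9.84, 9.48 and 9.85, without overlap. Il21r lost its call without untreated replicate 3 (0.94) or without replicate 3 (0.95). Havcr2, the checkpoint receptor TIM-3, rose by 1.50 ± 0.10, 1 of 32 costimulation and checkpoint genes to rise. Vdr, the vitamin D receptor, was the 1 called gene of 18 nuclear receptors (1.38 ± 0.09), reading 9.65, 9.50 and 9.10 at 0 h and 10.89, 10.73 and 10.78 at 4 h.

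Genes of G protein and Ras family signalling changed in both directions, 4 up and 2 down of 28, with a list median of 0.18. Over all genes 0.281% rose and 0.135% fell. Rasgrp3, an exchange factor that loads Ras and Rap with GTP, went from 6.33, 6.67 and 6.06 to 8.37, 8.16 and 7.84 (1.77 ± 0.10, adjusted p = 2.21e-08). Rgs1 (1.17 ± 0.09) and Rgs16 (1.06 ± 0.11), which shorten G protein signals, and the α subunit gene Gna15 (1.02 ± 0.07) rose. Rgs16 and Gna15 stood near the size threshold and lost their calls in 3 of 17 settings each. Gem, a small GTPase that inhibits calcium channels, read 10.46, 10.15 and 9.93 at 0 h and 8.34, 8.14 and 7.89 at 4 h. It fell by 2.06 ± 0.12 (4.16-fold, adjusted p = 2.3e-08), with nearly equal steps in the 3 pairs. Rgl1, an exchange factor for the Ral GTPase, fell by 1.21 ± 0.08. Rnd3, another small GTPase, fell by 1.02 ± 0.13, and its call was lost in 6 of 17 settings, among them no replicate block (adjusted p = 0.0137), no untreated replicate 3 (−0.92) and centring on the array median (−0.99). Risen genes of other roles were the adaptor gene Lax1 (1.83 ± 0.08), Luzp1 (1.52 ± 0.06), the transferrin receptor gene Tfr2 (1.47 ± 0.08), the kinase gene Sgk1 (1.19 ± 0.11) and the sterol exporter gene Abcg1 (1.10 ± 0.10). Abcg1 was at 0.98 without untreated replicate 3.

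Of the 27 fallen genes the largest change was that of Ednrb, the endothelin receptor B. It read 9.44, 9.80 and 8.02 at 0 h and 6.78, 7.02 and 6.81 at 4 h, so that all treated arrays were low and untreated replicate 3 lay between. The fall was 2.21 ± 0.26 (4.64-fold, adjusted p = 3.53e-05), and without replicate 1 it was 1.99 with an adjusted p of 0.0172. Cd28, a costimulatory receptor best known from T cells, went from 10.53, 10.50 and 9.89 to 8.99, 9.03 and 7.96 (−1.64 ± 0.10, adjusted p = 4.84e-08). Replicate 3 was the lowest at both times, and the groups did not overlap. Angpt1, the ligand of the Tie2 receptor made by blood progenitors, read 8.41, 8.21 and 8.48 at 0 h and 6.69, 6.85 and 6.72 at 4 h (−1.61 ± 0.15, adjusted p = 3.23e-06).

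Several surface receptors of myeloid cells fell. Of 33 lectin and Cd300 receptors 4 fell and none rose (median −0.083), against 0.135% of all genes down and 0.281% up. Clec4a1, a C-type lectin, read 10.85, 11.31 and 11.56 at 0 h and 9.10, 9.90 and 9.51 at 4 h (−1.74 ± 0.18, adjusted p = 1.13e-05). Clec4n, the fungal receptor dectin-2, went from 8.71, 9.61 and 9.60 to 7.12, 8.34 and 7.60 (−1.62 ± 0.23, adjusted p = 0.000253). In both genes replicate 1 was the lowest in each group, but every treated array lay under every untreated array. The adjusted p of Clec4n was 0.0129 without replicate 1. Clec4a3 fell by 1.41 ± 0.09 and Clec4d by 1.04 ± 0.21, the latter with a call in 6 of 17 settings. The immunoglobulin-like receptor genes Lilr4b (−1.19 ± 0.19), Pirb (−1.06 ± 0.09) and Tarm1 (−1.07 ± 0.12) and the membrane protein gene Ms4a4a (−1.44 ± 0.15) fell too. Lilr4b lost its call without the replicate block (adjusted p = 0.0757), without replicate 1 (0.0237) and in the fit of all 36 arrays (0.013), and Tarm1 without the block (0.0678) and in the fit of all 36 arrays (0.0263). Bst1, an ectoenzyme of myeloid and stromal cells, fell by 1.15 ± 0.12, and the chemokine gene Ccl6 by 1.07 ± 0.09. Cxcl16, a membrane-bound chemokine, was the 1 riser of 39 chemokines and cytokines (1.23 ± 0.23, adjusted p = 0.00267), from 7.94, 8.39 and 9.11 to 9.55, 9.78 and 9.81. Its untreated arrays spread widely, and it kept its call in only 7 of 17 settings. For example, its adjusted p was 0.0138 without untreated replicate 2 and 0.0676 without replicate 1.

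Vcan, which encodes the matrix proteoglycan versican, read 12.44, 12.95 and 12.64 at 0 h and 10.54, 11.77 and 10.87 at 4 h. Its fall was 1.61 ± 0.15 (adjusted p = 4.24e-06). Serpinb10, an intracellular protease inhibitor, went from 8.59, 10.12 and 9.35 to 7.07, 8.43 and 7.91 (−1.55 ± 0.23, adjusted p = 0.000397). In both genes replicate 2 was the highest in each group, and the Serpinb10 groups did not overlap although its replicates spread widely. Without the replicate as a block 54 rises and 12 falls were called (66 genes), and the adjusted p was 0.0361 for Vcan, 0.0276 for Serpinb10, 0.0432 for Clec4n and 0.0117 for Clec4a3. Lpl, lipoprotein lipase, fell by 1.26 ± 0.13 (adjusted p = 0.0149 without the block), the 1 called member of 26 monocyte and macrophage markers (0.416% of all genes were called). The mean level of those 26 markers was 9.83, 10.03 and 9.98 at 0 h and 9.66, 9.88 and 9.77 at 4 h, lower in each of the 3 pairs (list median −0.15). By the adjusted p alone 6 of them were lower and 1 higher, against 2.06% and 2.98% of all genes. Whether a change in monocyte-like cells had a part in these falls was not tested. Ahr, the aryl hydrocarbon receptor, was the 1 called gene of 51 blood transcription factors. It read 9.36, 9.82 and 8.58 at 0 h and 8.18, 8.22 and 8.24 at 4 h (−1.04 ± 0.18, adjusted p = 0.00102). Its call was kept in 10 of 17 settings. It was lost without replicate 1 (−0.97, adjusted p = 0.0864) and without replicate 2 (−0.76, adjusted p = 0.0368). It was also lost without untreated replicate 2 (−0.77), untreated replicate 1 (−0.99) or treated replicate 2 (−0.98). The same held with only the compared arrays (adjusted p = 0.0428) and after a repeated quantile normalization (−0.9997).

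Many groups with a known role held no called gene. Over all genes 0.416% were called, so lists of this size mostly hold none, and the zeros do not set these groups apart. By the adjusted p alone 2.98% of all genes were higher and 2.06% lower. Among 24 immediate early genes, which answer growth and stress signals within minutes, none was called, and the median was −0.091. By the adjusted p alone Csrnp1 (0.42 ± 0.07) was higher and Ier3 (−0.67 ± 0.13), Klf6 (−0.31 ± 0.06), Klf2 (−0.27 ± 0.06) and Zfp36 (−0.27 ± 0.06) were lower, while Egr1 (−0.20), Fos (0.08) and Junb (−0.12) did not pass it. No gene was called among the 21 Notch pathway genes, the 20 MAPK phosphatases and Ras brakes, the 27 S phase genes, the 23 genes of G2 and mitosis, the 20 cyclins D, CDK inhibitors and Rb family genes or the 28 ribosome biogenesis genes. Notch1 (0.64 ± 0.09) and Lfng, which modifies Notch (0.38 ± 0.07), were among the 4 Notch pathway genes that passed the adjusted p without the size threshold, all higher. Of the MAPK phosphatases and Ras brakes Dusp6, the phosphatase of ERK (0.64 ± 0.09), and Nf1 (0.31 ± 0.06) were higher by it and Spred1 (−0.43 ± 0.07) and Dusp5 (−0.31 ± 0.05) lower. S phase genes had a median of 0.10 (0.067 without untreated replicate 3) and mitosis genes one of 0.0032, against 0.0073 for all genes.

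The lists of amino acid stress and of sterol synthesis held no called gene, and their medians were below 0. Over all genes 0.416% were called, and by the adjusted p alone 2.06% were lower and 2.98% higher. Of 27 amino acid stress genes 7 were lower and none higher by the adjusted p alone (median −0.13). Without untreated replicate 3 the median was −0.20 and 1 gene was called as fallen. Chac1, which degrades glutathione, read 9.91, 9.87 and 9.82 at 0 h and 8.88, 8.93 and 8.82 at 4 h (−0.99 ± 0.06, adjusted p = 1.98e-08), just under the size threshold. The groups did not overlap. Atf4, the factor that drives the response, was at −0.36 ± 0.04 and its target Mthfd2 at −0.46 ± 0.05. Slc7a11, the cystine transporter, differed more (−1.22 ± 0.37) but with an adjusted p of 0.055, and untreated replicate 3 (10.56) lay above the other untreated arrays (9.78 and 9.78). Of 24 cholesterol and fatty acid synthesis genes 7 were lower and none higher by the adjusted p alone (median −0.13), from Idi1 (−0.39) to Cyp51 (−0.21). Of 20 glycolysis and hypoxia genes 5 were lower by it, with the glucose transporter gene Slc2a3 the most (−0.82 ± 0.08).

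Inflammatory genes were higher on untreated replicate 3 than on the other arrays. The mean of 30 interferon-stimulated genes was 8.79, 8.78 and 9.50 at 0 h and 8.70, 8.53 and 8.68 at 4 h. That of 25 NF-κB subunits, inhibitors and targets was 9.60, 9.79 and 10.43 at 0 h and 9.48, 9.53 and 9.48 at 4 h. In both lists untreated replicate 3 stood above all other arrays, and no gene was called, against 0.416% of all genes. The list medians were −0.36 and −0.28, and −0.13 and −0.081 without that array. Il1b, a central inflammatory cytokine, read 8.46, 9.15 and 10.36 at 0 h and 7.20, 7.45 and 7.23 at 4 h. All treated arrays were lower, the untreated ones spread widely, and the difference of −2.03 ± 0.58 had an adjusted p of 0.0407. Ptgs2, the inducible cyclooxygenase (−1.39 ± 0.37, adjusted p = 0.0274), and Ccl3, a chemokine (−1.30 ± 0.33, adjusted p = 0.0211), showed the same order of the untreated arrays. Without untreated replicate 3 the comparison called 46 genes up and 31 down, 68 of them shared with the 83.

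**Figure D3:**
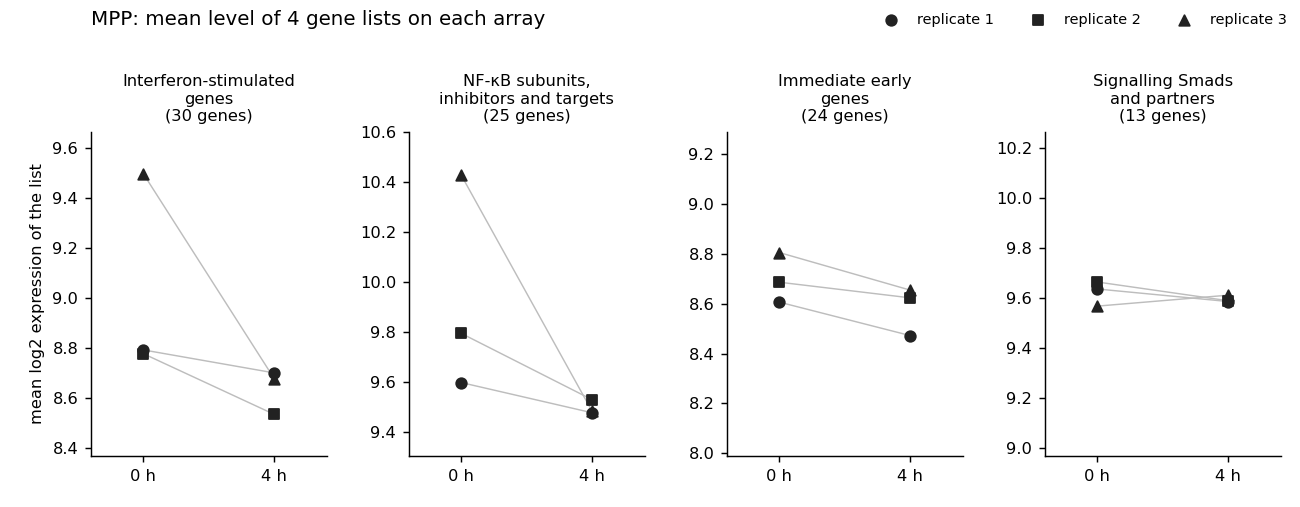
Mean log2 expression (y axis, the same span in each panel) of 4 gene lists on each MPP array at 0 h and 4 h; markers give the replicate and grey lines join same-numbered arrays. Untreated replicate 3 stands at 9.50 in the interferon list and 10.43 in the NF-κB list, above every other array, and it is the highest untreated array of the immediate early genes and the lowest of the signalling Smads.

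Few markers of other blood lineages were called, against 0.416% of all genes. At that share lists of this size mostly hold no called gene, so a zero does not set a lineage apart. Of 21 neutrophil granule, 18 mast cell and basophil, 23 dendritic cell, 11 erythroid, 14 B cell and 22 T and NK cell genes none was called. Their medians ran from −0.049 to 0.035. The neutrophil list differed between replicates far more than between times, with means of 11.10, 11.63 and 11.85 at 0 h and 11.07, 11.56 and 11.83 at 4 h. Of 13 megakaryocyte genes F2r alone rose. Langerhans cells are epidermal antigen-presenting cells that need TGF-β1 to form. Of their 15 listed genes Axl and Tgfbr1 rose and Ahr fell, with a median of −0.024. The 44 lists together covered 1021 measured genes, and 34 of the risen and 14 of the fallen genes stood in none of them.

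The other MPP times show where 4 h lies in the response. Against 2 h only Vcan was called (−1.14 ± 0.15, adjusted p = 0.00235, 0.00502% of genes), and that call was lost in 8 of the 9 fits that left out arrays. By the adjusted p alone 21 genes were higher (0.105%) and 26 lower (0.13%) at 4 h than at 2 h. The higher ones included Rasgrp3 (0.84 ± 0.10), Chad (0.76 ± 0.06), Axl (0.71 ± 0.09), Nt5e (0.66 ± 0.09) and Pald1 (0.54 ± 0.05). The lower ones included Angpt1 (−0.95 ± 0.15), Ifitm6 (−0.83 ± 0.12), Ccl6 (−0.75 ± 0.09) and Clec4a3 (−0.63 ± 0.09).

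For the pathway brakes no step from 2 h to 4 h passed the adjusted p. Pmepa1 differed by 0.01 ± 0.12 (95% interval −0.25 to 0.28, adjusted p = 0.991), Ski by 0.03 ± 0.06, Spsb1 by −0.25 ± 0.09 (adjusted p = 0.337) and Smad7 by −0.26 ± 0.09 (adjusted p = 0.338). Their changes from 0 h, which share the untreated arrays, were 3.56, 1.48, 2.74 and 1.49 at 2 h and 3.58, 1.51, 2.49 and 1.23 at 4 h. From 2 h to 4 h Skil differed by −0.20 ± 0.09 (adjusted p = 0.46) and Ldlrad4 by 0.19 ± 0.05 (adjusted p = 0.0907). The unadjusted 95% intervals left out 0 for Spsb1 (−0.45 to −0.06), Smad7 (−0.46 to −0.06), Skil (−0.39 to −0.02) and Ldlrad4 (0.09 to 0.29). A level course is therefore not shown for these brakes. Some falling genes lay further from 0 h at 4 h than at 2 h. The change of Vcan from 0 h was −0.47 at 2 h, −1.61 at 4 h and −3.03 at 8 h, that of Clec4a1 −0.85, −1.74 and −2.34, and that of Serpinb10 −0.41, −1.55 and −2.17. Gem (−1.87, −2.06 and −1.66) and Cd28 (−1.56, −1.64 and −1.33) had their fall at 2 h already. Over all called genes the median difference between 4 h and 2 h was 0.18 for the risen and −0.58 for the fallen, values that the choice of genes on the 4 h arrays pulls away from 0.

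From 4 h to 8 h 3 genes were called (0.015%), Vcan (−1.42 ± 0.15), Chad (1.16 ± 0.06) and Cd96, an adhesion receptor of lymphoid cells (1.16 ± 0.10). No gene was called, and none passed the adjusted p alone, when 4 h was set against the mean of 2 h and 8 h with limma, although 1161 genes had an unadjusted p under 0.05. A peak or dip at 4 h alone was not detectable with 3 arrays per time. Angpt1 was at −0.66, −1.61, −1.43, −1.02 and −0.78 against 0 h over the 5 times, and Abcg1 at 0.92, 1.10, 0.82, 0.47 and 0.39, so that both stood farthest from 0 at 4 h.

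**Figure D4:**
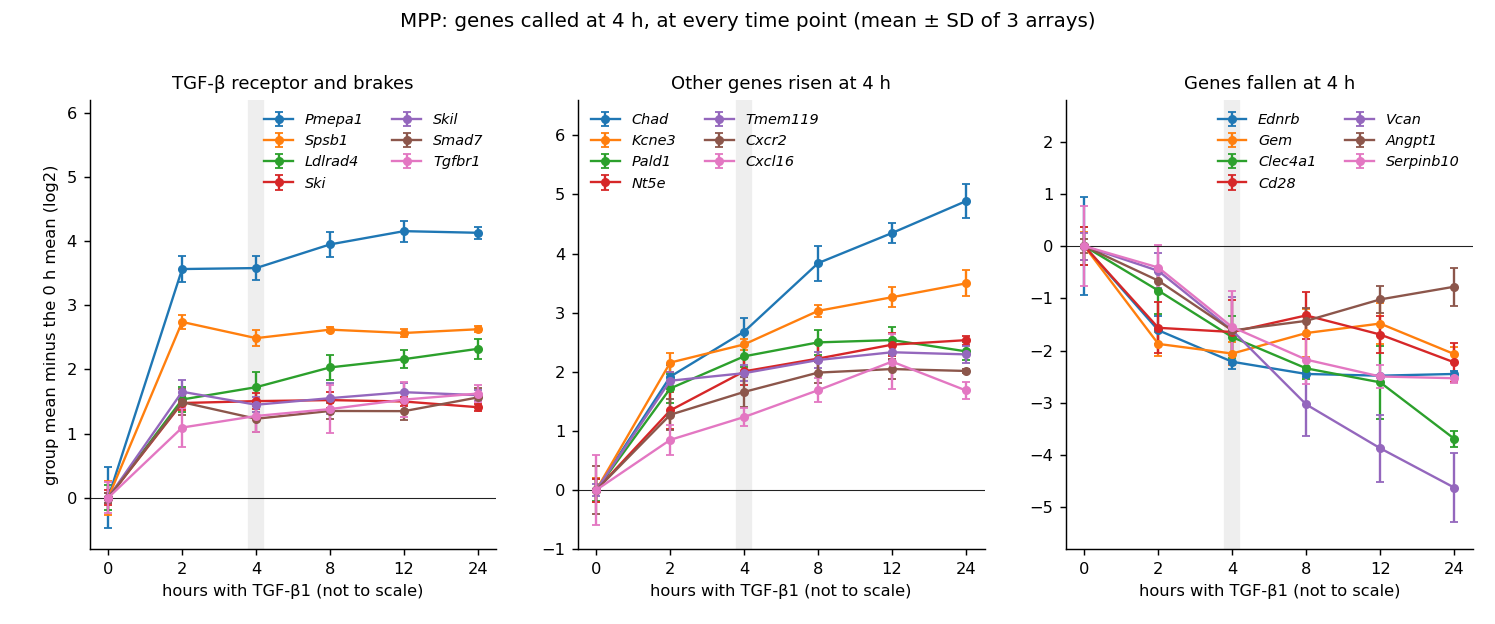
Group mean minus the 0 h mean (y axis, log2) of called genes at each time with TGF-β1 (x axis, h, not to scale); points are means and bars SDs of 3 MPP arrays, and the grey band marks 4 h. Ski is at 1.48 at 2 h, 1.51 at 4 h and 1.41 at 24 h, Chad goes on to 4.89 at 24 h, and Vcan falls from −1.61 at 4 h to −4.62 at 24 h while Angpt1 returns to −0.78.

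CDP gave the nearest comparison, since their 0 h and 4 h arrays are other samples with the same design. In CDP 86 genes rose and 54 fell at 4 h (0.702%). Of the 56 genes risen in MPP 37 also rose in CDP, 66.1% of the MPP list and 43.0% of the CDP list, against 0.431% of all genes called up there. Of the 27 fallen genes 16 also fell in CDP, 59.3% of the MPP list and 29.6% of the CDP list, against 0.271% of all genes. None was called in the opposite direction, and all 83 had the same sign in CDP. The risen genes had a median of 1.28 in MPP and 1.35 in CDP, and the fallen genes −1.19 and −1.17.

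The difference of the responses itself was called for 28 genes (0.14%), 13 upward (0.0652%) and 15 downward (0.0752%), and 3 of them belong to the 83. Angpt1 fell in MPP and was at −0.10 in CDP, a difference of 1.52 ± 0.18 (95% interval 1.14 to 1.89, adjusted p = 1.68e-05). In untreated CDP it stood at 5.79 against 8.37 in untreated MPP. Il1f9, an interleukin 1 family cytokine, read 9.05, 9.63 and 10.33 at 0 h and 8.02, 8.61 and 8.74 at 4 h in MPP (−1.22 ± 0.18) and was at −0.02 in CDP, where its level was 6.33. Its fall in MPP lost its call without the replicate block (adjusted p = 0.093) and without replicate 1 (0.0162). Lax1, an adaptor that restrains antigen receptor signals, rose by 1.83 ± 0.08 in MPP and was at 0.67 in CDP (difference −1.17 ± 0.14, adjusted p = 1.68e-05), from similar untreated levels of 7.16 and 6.99. Nxpe2, not called in MPP at 0.99 ± 0.10, was at −0.08 in CDP (difference −1.08 ± 0.14).

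Most of the strongest other differences came with small values in MPP. Siglech, a lectin of plasmacytoid dendritic cells, was at −0.04 in MPP and 1.93 in CDP (difference 1.96 ± 0.20). The junction gene Cldn1 was at −0.05 and 1.82 (1.87 ± 0.24), Hepacam2 at 0.23 and 2.01 (1.79 ± 0.19), Gm11545 at 0.00 and 1.47 (1.48 ± 0.23) and Bank1, a B cell adaptor, at −0.09 and −1.61 (−1.51 ± 0.16). The level of Bank1 was 6.77 in untreated MPP against 9.15 in untreated CDP, and whether this limited a fall in MPP was not tested. Gda, guanine deaminase, passed the adjusted p in both, with −0.86 ± 0.06 in MPP and −2.22 in CDP (difference −1.36 ± 0.16). For Pmepa1 the difference was 0.25 ± 0.28 (95% interval −0.34 to 0.83), which does not show that the cell types respond alike. Tgfbr1 rose by 2.18 in CDP, 0.91 ± 0.11 more than in MPP (adjusted p = 2.88e-05), under the size threshold.

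**Figure D5:**
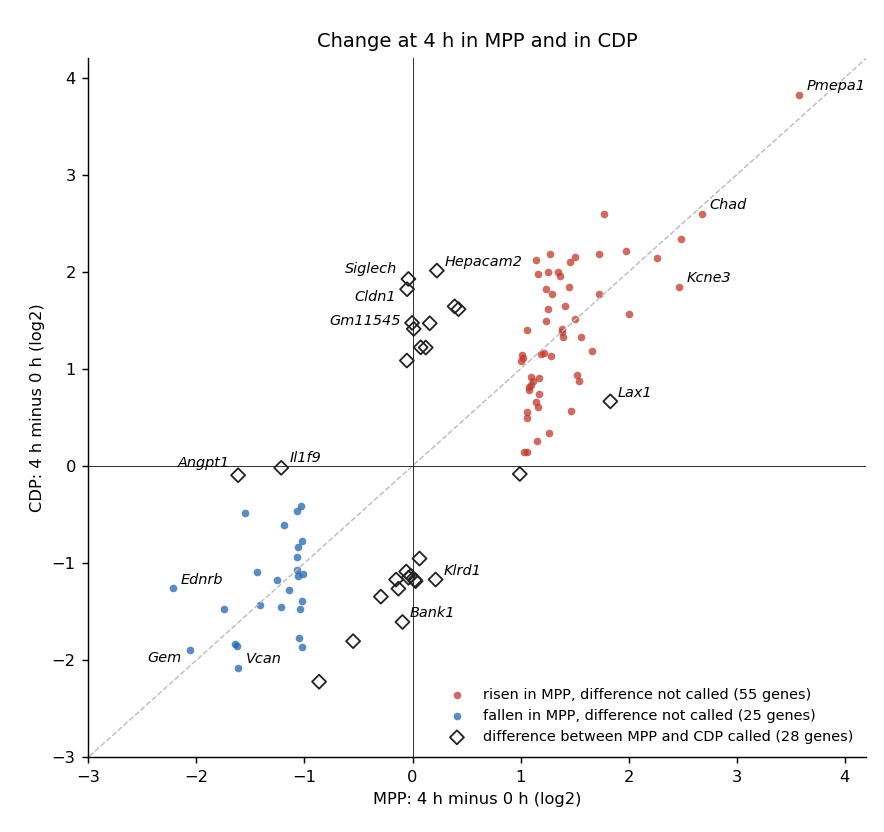
Change at 4 h in CDP (y axis, log2) against that in MPP (x axis, log2) for the 83 genes called in MPP and the genes whose difference between the cell types was called; red points had risen (55 genes) and blue points fallen (25 genes) in MPP with no called difference, open diamonds are the 28 genes with a called difference, and the dashed line marks equal change. All called MPP genes lie in the quadrants of equal sign, and Angpt1, Il1f9 and Lax1 are the diamonds among them.

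Genes lay close to the size threshold on both sides. Just inside stood the ubiquitin protease gene Usp2 (1.01 ± 0.05), Sipa1l2 (1.01 ± 0.08), Gm5150 (−1.02 ± 0.13) and the collagen lysyl hydroxylase gene Plod2 (−1.01 ± 0.17). Gm5150 kept its call in 10 and Plod2 in 8 of 17 settings, with adjusted p-values of 0.192 and 0.184 without the replicate block. Just outside stood Cx3cr1, Dhrs3 and C5ar2 (each 1.00) and Ifi209 (−0.998), Chac1 (−0.99) and Arhgef37 (−0.98).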

How the data were processed

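RNA of sorted MPP and CDP was hybridised to Affymetrix mouse arrays. The deposited values are log2 expression values per probe set, which the authors normalized with RMA in Affymetrix Power Tools per the labels (versions not given in the sources used here), which expresses a change relative to the rest of the array and compresses those of dim genes. Of 35556 probe sets, 21789 carried 1 symbol, 1621 several and 12146 none, and the brightest probe set over 36 arrays stood for each of 19938 genes. The 18 MPP arrays were fitted together by lmFit and eBayes of limma (version 3.58.1, under R 4.3.3), with the replicate number as a block and two-sided p-values adjusted over all 19938 genes by Benjamini-Hochberg. The MPP and CDP responses were compared in a fit that held both cell types. Same-numbered arrays at 0 h and 4 h deviated together (residual r of 0.568, 0.325 and 0.292, against −0.347 to −0.011 for other pairs). The code was tested on simulated data. The genes named were the 15 largest rises and 15 largest falls, called members of the gene lists, TGF-β pathway members, cell type markers and the leading genes of the other contrasts. The comparison and the lists were chosen with earlier results of these data known. Precision is limited by 3 arrays per group, and no detection calls were used. The labels' treatment text names 6 h where the titles name 8 h, and the titles were followed.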

Additional observations from a re-analysis of the deposited data

Results flagged for a closer look

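The response at 4 h differed between CDP and MPP, by a test of the difference itself, for 28 genes, of which 10 are named above. CDP minus MPP, the difference of these 10 was 1.96 for Siglech, 1.87 for Cldn1, 1.79 for Hepacam2, 1.52 for Angpt1, 1.48 for Gm11545, 1.20 for Il1f9, −1.08 for Nxpe2, −1.17 for Lax1, −1.36 for Gda and −1.51 for Bank1 on the log2 scale. Untreated levels were low for Bank1 in MPP (6.77) and for Angpt1 (5.79) and Il1f9 (6.33) in CDP. Whether a low level limited a fall there was not tested. Among probe sets with no gene symbol, which entered no comparison above, 22 of 12146 passed the same thresholds in MPP at 4 h (19 up and 3 down), and 0 of 1621 probe sets with several symbols did so by limma. No outlier test was run on the values of single genes, since each group held 3 arrays.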

How the results depend on the processing

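The 4 h against 0 h comparison called 66 genes (all among the 83) without the replicate block, and 78 to 88 under the other settings (fewer or more arrays in the fit, mean of probe sets, filter on dim genes, another spread model, another normalization, adjusted p under 0.05). Leaving out arrays gave 74 to 96, with 53 of the 83 genes called in all 9 such fits. Centring each array on its median called 64 up and 22 down and moved the median of all genes to 0.047. The replicate block mattered most for falls. Without this pairing, 4 h against 2 h called 0 genes in place of 1, 8 h against 4 h called 1 in place of 3, and the CDP and MPP difference 17 in place of 28. For 4 h against 2 h, only the compared arrays, all 36 arrays and an adjusted p under 0.05 each gave 2. Leaving out arrays gave 0 to 1 for 4 h against 2 h, 1 to 6 for 8 h against 4 h and 14 to 30 for the difference. No called change reversed its direction. The cause of these shifts was not tested.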
